A study of Mus musculus with 11 samples.

Results

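Cells enter and leave mitosis through a set of genes that are transcribed mostly in the G2 and M phases. Their products condense the chromosomes, attach them to the spindle through kinetochores, hold back anaphase until attachment is complete and divide the cell. Antigen-driven CD8 T cells divide rapidly, so levels of these genes in a sorted T cell population are widely used as a sign of how many cells are cycling. The mitosis and kinetochore genes described here are a list of 42 names, from the proliferation antigen Mki67 to the division kinesins. The list was applied to a microarray study of mouse CD8 T cells with or without galectin-3, a secreted lectin encoded by Lgals3. Rows of the array that name exactly 1 gene held 41 of the 42. Kif18b was named by no such row. All 41 had a mean log2 signal over the 11 arrays at or above 4.33, the 25th percentile of the 20259 named genes, and are thus among the 15194 genes tested.

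Transcripts were measured in T cell receptor transgenic CD8 T cells carrying the surface marker Thy1.2. They had been transferred into mice with NT2.5 mammary tumors and were sorted from those tumors 5 days later by Thy1.2. All hosts, those of the comparison group included, had received cyclophosphamide (100 mg/kg) on day 8, a whole-cell vaccine secreting GM-CSF on day 9 and the T cells on day 10 after tumor injection. The groups, written as T cell genotype over host genotype, were galectin-3 knockout T cells from knockout hosts (KO/KO, n = 4), wild-type T cells from knockout hosts (WT/KO, n = 3) and wild-type T cells from wild-type hosts (WT/WT, n = 4), which the submitters name as their point of comparison. One more WT/KO array of the design was not analysed here. No group paired knockout T cells with wild-type hosts. KO/KO against WT/WT therefore differs in both T cells and hosts, KO/KO against WT/KO in the T cells alone, and WT/KO against WT/WT in the hosts alone. Each pair of these comparisons shares the arrays of 1 group. The knockout allele, the age and sex of the mice and whether an array holds 1 mouse or a pool are not given in the labels, so the p-values below speak only of spread among these samples, which may be technical in part.

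The arrays correlated with each other at Pearson coefficients of 0.94 to 0.97 across the 15194 genes tested. Lgals3 itself had log2 signals of 7.39, 7.54, 7.26 and 7.54 in KO/KO, 8.35, 8.02 and 8.45 in WT/KO and 8.49, 8.15, 8.17 and 8.41 in WT/WT. Every KO/KO array lay below every other array, by 0.87 against WT/WT in the mean. The 7 CD8 T cell genes measured averaged 9.87 to 10.08 in KO/KO, 9.95 to 10.05 in WT/KO and 9.81 to 10.08 in WT/WT. In this bulk RNA, a larger share of dividing cells and more RNA per dividing cell cannot be told apart.

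No single member passed the test in any comparison. limma with Benjamini-Hochberg adjustment over all 15194 genes called 0 genes of the whole table in each (0%), against which the counts below are descriptions at an unadjusted p under 0.05. The group nonetheless lay to one side in KO/KO. Against WT/WT, 40 of 41 members were higher in KO/KO, where 46.7% of all genes were, and the members' median log2 difference was 0.40, where that of all genes was -0.02. At an unadjusted p under 0.05, 24 members were higher and 0 lower, where 4.79% of all genes were higher and 3.67% lower. The 4 KO/KO arrays lay wholly above the 4 WT/WT arrays for 13 members and wholly below for 0, where 2.61% of all genes lay above and 2.41% below, and 11 members were higher by 0.5 or more, where 2.69% of all genes were. Mastl, among the 13, had WT/KO and WT/WT means below the filter and was kept through its KO/KO arrays. Without Mastl, 39 of 40 members were higher in KO/KO than in WT/WT. Without WT/WT replicate 3, KO/KO lay wholly above for 20 members and for 5.16% of all genes. Without both WT/WT arrays of narrowest value range, replicates 1 and 4, KO/KO lay wholly above for 18 members and for 6.78% of all genes. In that refit 15 members were at an unadjusted p under 0.05, and no share of all genes at that p is given here. The lowest adjusted p of a member was 0.188.

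Between T cell genotypes in knockout hosts, 39 of 41 members were higher in KO/KO than in WT/KO, where 53.2% of all genes were. The members' median log2 difference was 0.23, where that of all genes was 0.01. At an unadjusted p under 0.05, 11 members were higher and 0 lower, where 1.93% of all genes were higher and 1.48% lower. The groups did not overlap for 8 members, all higher in KO/KO, where 2.26% of all genes were higher and 1.81% lower, and 6 members were higher by 0.5 or more, where 1.32% of all genes were. The 11 members at an unadjusted p under 0.05 were 5 without WT/KO replicate 3 and 7 without KO/KO replicate 4. Shares of all genes at that p are not given for these refits, so the drop may not be particular to the members. The lowest adjusted p of a member was 0.661, that of Mastl, which is also among the 11, the 8 and the 6. Kept by the filter through its KO/KO arrays, Mastl is no support here, and without it 38 of 40 members were higher. Between hosts, wild-type T cells gave smaller differences: 32 of 41 members were higher in WT/KO than in WT/WT, where 45.5% of all genes were, with a median of 0.16, where that of all genes was -0.03. Here 5 members were higher at an unadjusted p under 0.05, where 3.62% of all genes were higher and 3.86% lower. This count was 2 to 3 without any 1 WT/KO array and 8 without WT/WT replicate 3, again with no share of all genes given. WT/KO lay wholly above WT/WT for 5 members, where 3.57% of all genes did, and wholly below for 1, Mastl, where 5.32% did. Without Mastl, 32 of 40 members were higher in WT/KO than in WT/WT. No member was higher by 0.5 or more in this comparison, where 2.33% of all genes were, and the lowest adjusted p was 0.629.

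**Figure D1:**
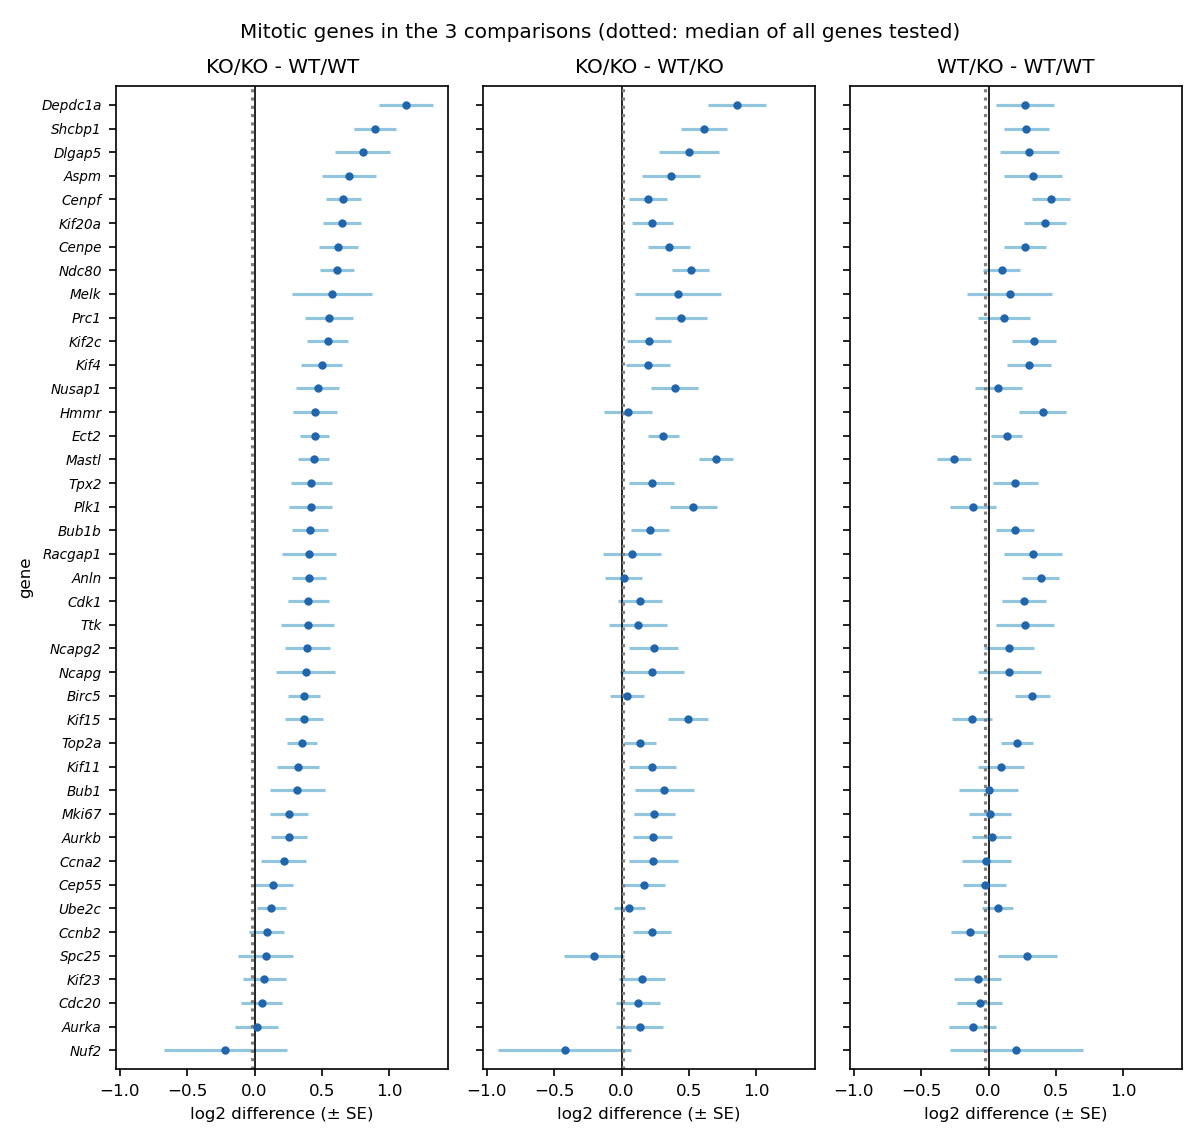
Log2 difference of each of the 41 members in the 3 comparisons, with standard errors from limma, ordered by the KO/KO minus WT/WT difference, and with the median of all genes dotted. The points for KO/KO minus WT/WT lie to the right of 0 for 40 of 41 members, and those for WT/KO minus WT/WT lie on both sides of 0, with 32 members to the right.

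The same values can be read array by array. Each member was centred on its own mean over the 11 arrays and the 41 centred values were averaged. This score was 0.16, 0.21, 0.04 and 0.44 in KO/KO, -0.03, 0.00 and -0.08 in WT/KO, and -0.26, -0.21, -0.11 and -0.17 in WT/WT. No 2 groups overlapped, with means of 0.21 ± 0.17 in KO/KO (SD, n = 4), -0.04 ± 0.04 in WT/KO (SD, n = 3) and -0.19 ± 0.06 in WT/WT (SD, n = 4). The lowest KO/KO array, at 0.04, lay close to the highest WT/KO array, at 0.00. The score repeats the values counted above, Mastl and the uncertain rows described below included. It is no further support, and no share of all genes stands beside it. KO/KO replicate 4 stood above the others: it was the highest array for 24 of the 41 members, where it was the highest for 9.94% of all genes. Without it, the median difference was 0.31 against WT/WT, with 38 of 41 members higher, and 0.16 against WT/KO, with 32 of 41 members higher. The group means stood in the order KO/KO above WT/KO above WT/WT for 30 members, where 17% of all genes had that order. Another 9 members had KO/KO highest and WT/KO lowest. The order held for 24 members without KO/KO replicate 4.

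**Figure D2:**
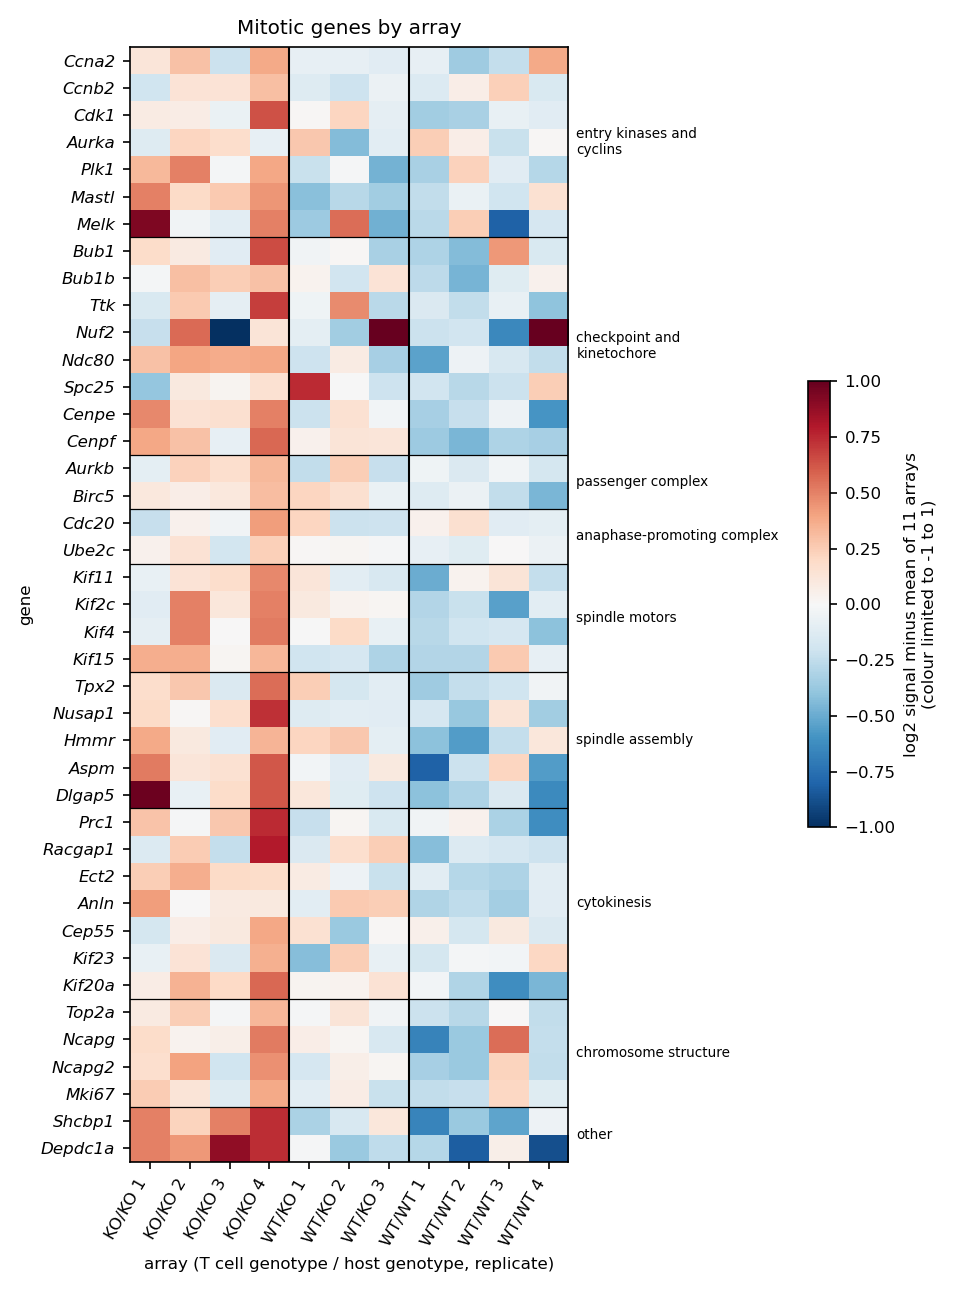
Log2 signal of each member in each array minus the member's mean over all 11 arrays, with members grouped by role and KO/KO, WT/KO and WT/WT from left to right. Values above 0 gather in the KO/KO columns, most in KO/KO replicate 4, and values below 0 in the WT/WT columns.

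Technical and cellular features of the arrays also differed between the groups. The value range of an array was taken as the slope of its values on those of the average array. Its median was 1.01 in KO/KO, 1.01 in WT/KO and 0.98 in WT/WT, with WT/WT replicates 1 and 4 narrowest at 0.96 and 0.93. Dim and bright genes differed along with it: when all genes tested were put into 4 equal bins by mean signal, the median of KO/KO minus WT/WT was -0.10 in the dimmest bin and 0.07 in the brightest. The members' medians in the same bins, dimmest to brightest, were 0.44, 0.40, 0.44 and 0.35. With the value range as a covariate the members' median was 0.35 for KO/KO against WT/WT, 0.23 for KO/KO against WT/KO and 0.08 for WT/KO against WT/WT.

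Genes of other cells also differed in level between the groups, though none passed the test. Of all genes, 46.7% were higher in KO/KO than in WT/WT, 53.2% in KO/KO than in WT/KO and 45.5% in WT/KO than in WT/WT. Of 17 macrophage and monocyte markers, 13 were measured at or above the filter, with mean log2 signals over the list of 6.78 to 7.13 in KO/KO, 6.82 to 7.33 in WT/KO and 6.40 to 6.60 in WT/WT. All 13 were higher in KO/KO than in WT/WT and in WT/KO than in WT/WT, and 4 of 13 were higher in KO/KO than in WT/KO. Adgre1 and Msr1, which mark macrophages, had WT/WT means below the filter and were kept through their KO-host arrays, with means of 4.49 and 4.51 over all arrays. Without them, 11 of 11 were higher in each comparison with WT/WT. Mrc1 lay below the filter. With the macrophage score as a covariate, the members' median was 0.59 for KO/KO against WT/WT, 0.23 for KO/KO against WT/KO and 0.30 for WT/KO against WT/WT. That score ran from -0.42 to -0.22 in WT/WT and did not overlap with the arrays from knockout hosts, lowest at -0.04. The values against WT/WT thus rest on slopes within groups, and macrophage content and host cannot be told apart there. Among 7 neutrophil markers, the list's mean signal was 5.29 to 5.66 in KO/KO, 4.76 to 5.26 in WT/KO and 4.83 to 5.01 in WT/WT. Of the 7, 3 were higher in KO/KO than in WT/WT, with a median of -0.01. Between hosts, 3 were higher in WT/KO than in WT/WT, with a median of -0.08. All 7 were higher in KO/KO than in WT/KO, with a median of 0.11. Ltf had a WT/KO mean below the filter. Without it, 3 of 6 were higher in WT/KO than in WT/WT and 6 of 6 in KO/KO than in WT/KO. S100a8, a neutrophil calgranulin, was the most different, higher by 2.72 in KO/KO than in WT/WT and by 1.54 (SE 0.59) than in WT/KO. The 4 genes measured of the natural killer cell list averaged 6.84 to 7.23 in KO/KO, 6.71 to 7.18 in WT/KO and 6.31 to 6.65 in WT/WT. Tyrobp and Fcer1g, which are not particular to natural killer cells, were the brightest at 8.52 and 9.04 over all arrays. Ncr1 was at 4.52 and Klre1 at 5.07, so the average is no measure of natural killer cells alone. The 8 tumor epithelium genes averaged 5.09 to 5.32 in KO/KO, 5.26 to 5.35 in WT/KO and 5.15 to 5.58 in WT/WT, and 0 of 8 were higher in KO/KO than in WT/WT. Among them, Krt18 had a KO/KO mean below the filter and was kept through its other arrays. Without Krt18, 0 of 7 were higher. The 5 dendritic cell genes averaged 6.13 to 6.45 in KO/KO, 6.18 to 6.31 in WT/KO and 6.00 to 6.07 in WT/WT. Of the 5, 3 were higher in KO/KO than in WT/WT, 4 in WT/KO than in WT/WT and 2 in KO/KO than in WT/KO. Flt3 had a WT/KO mean below the filter, and without it the last 2 counts were 4 of 4 and 1 of 4. Lists for B cells, CD4 T cells, stroma and endothelium were also scored and are not described here. The part of neutrophil, natural killer, dendritic and tumor genes in the members' differences was not tested.

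**Figure D3:**
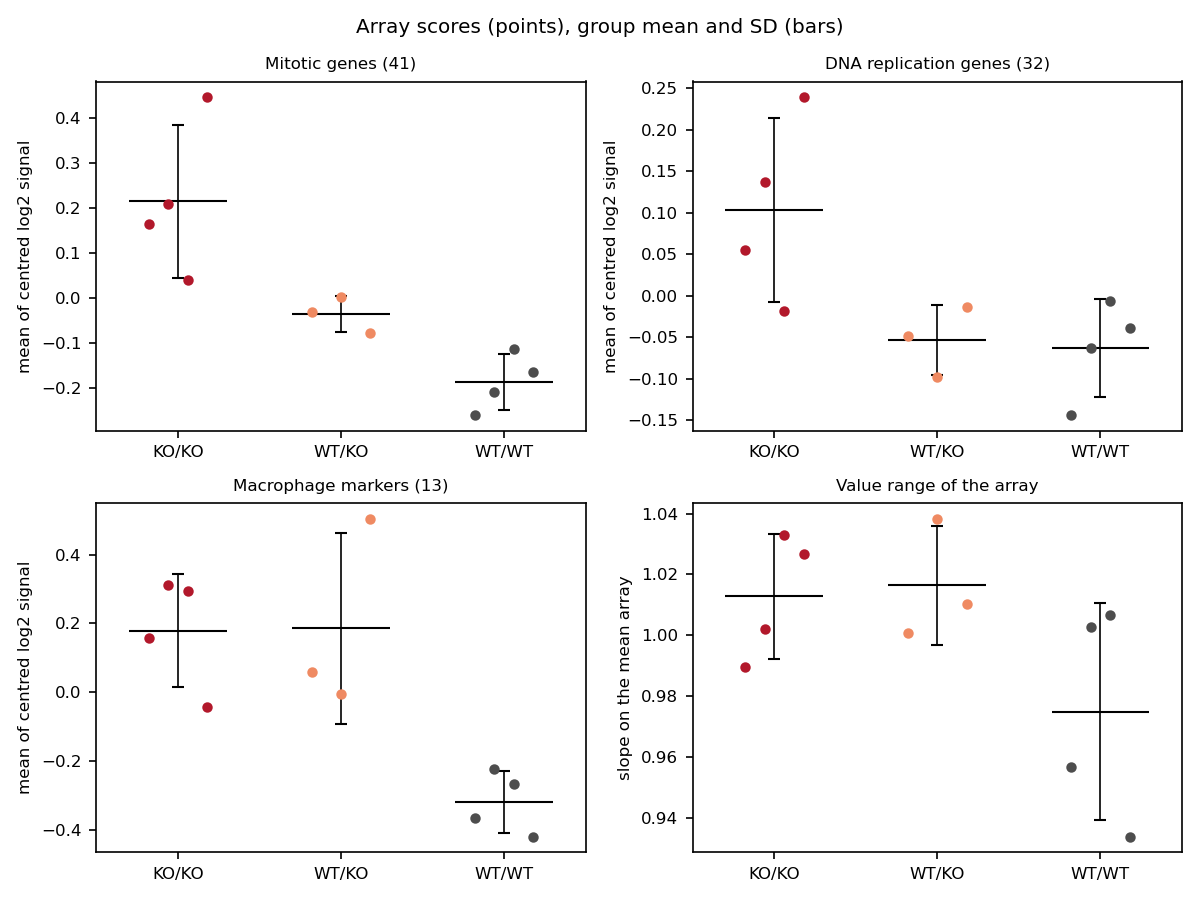
Scores of each array (points) for the 41 members, 32 DNA replication genes and 13 macrophage markers, as mean centred log2 signal, and the array's value range, with group means and SD. KO/KO, WT/KO and WT/WT run from left to right. The members' score runs from 0.04 to 0.44 in KO/KO, -0.08 to 0.00 in WT/KO and -0.26 to -0.11 in WT/WT, while the macrophage score runs from -0.04 to 0.31, -0.01 to 0.50 and -0.42 to -0.22 in the same groups.

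For 3 members it is uncertain whether the row used reports the gene it names. On this array 22985 of 25276 named rows (90.9%) have neighbours in the order of row numbers, 10 on each side, that mostly name genes of the same chromosome. This held for 38 of the 41 rows used. The rows of Nuf2, Cdc20 and Depdc1a lay instead among rows naming genes of chromosomes X, 16 and 7, whereas RefSeq places the genes on chromosomes 1, 4 and 3. Each of the 3 has a second, dimmer row among rows of its own chromosome, and both are given where the gene is described. These second rows were chosen after the data were seen. With them, 41 of 41 members were higher in KO/KO than in WT/WT, 40 of 41 in KO/KO than in WT/KO and 32 of 41 in WT/KO than in WT/WT. KO/KO then lay wholly above WT/WT for 12 members and for 2.6% of all genes, where 13 members did so on the rows used.

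**Figure D4:**
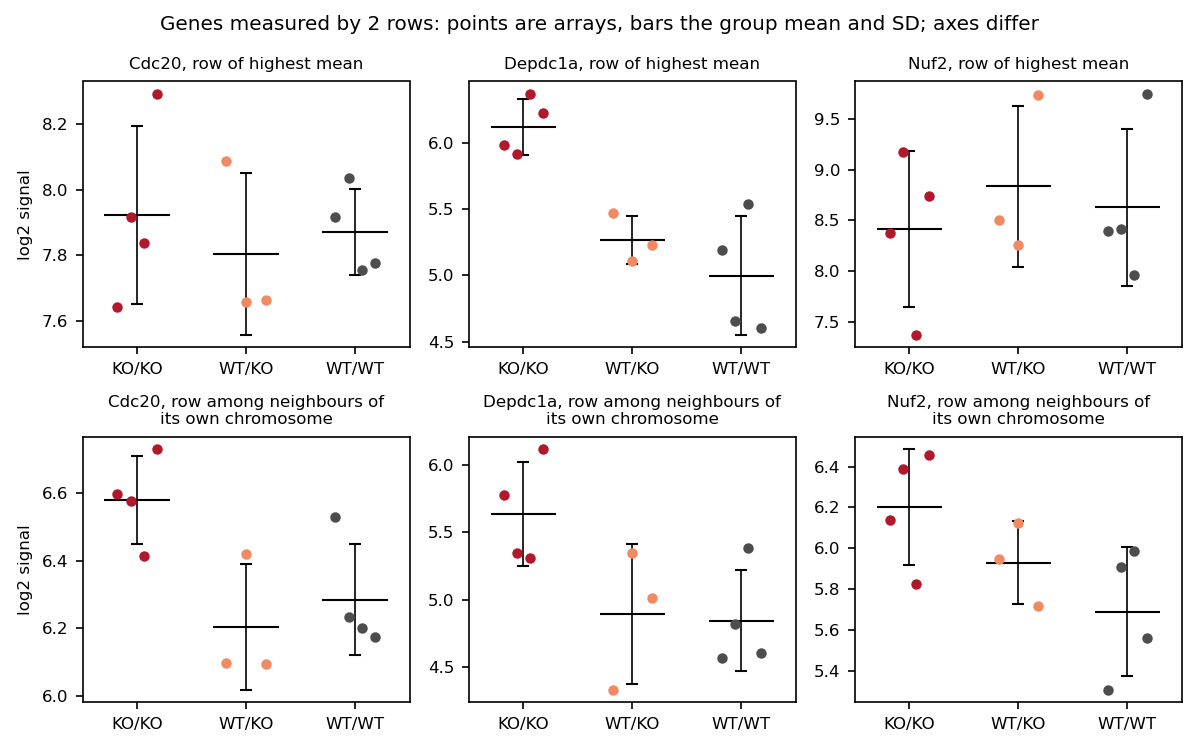
Log2 signal by array (points, with group mean and SD) of the row used, above, and the second row, below, for Cdc20, Depdc1a and Nuf2, with KO/KO, WT/KO and WT/WT from left to right in each panel and axes that differ. For Nuf2 the groups overlap in the row used, while in the second row the KO/KO mean exceeds the WT/WT mean by 0.51.

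Promoters of the members are shown because G2 and M phase genes are known for shared promoter elements. The list was made of such genes, so the shares below describe the list and say nothing of these arrays. The cell cycle genes homology region, TTTGAA, is bound by the MuvB core of the DREAM, B-Myb and FoxM1 complexes, and the CCAAT box by NF-Y. RefSeq (GRCm38.p6) gave windows of 250 bases before to 50 bases after the transcription start for 35 of the 41 members. On either strand, that hexamer was in a window of 28 of these 35 members and in 17.9% of the 32851 windows of all genes. CCAAT was in a window of 25 members and in 37.4% of all windows. TTTAAA, a variant that reads the same on both strands, was in windows of 8 members and 13.2% of all windows, and of the E2F-type letters, TTTCGCG was in windows of 1 member and 0.85% of all windows and the other form, TTTGGCG, in windows of 2 members and 1.56% of all. A CCAAT box together with either hexamer was in 65.8% of the members' windows and 10.7% of all windows. These matches are letters in a window and not measured binding. The 4 windows below were taken by number of matches, then by p, among the 8 members of lowest p for KO/KO against WT/WT. Of these, Shcbp1, Kif20a and Dlgap5 had no window and could not be chosen. Cenpe, not shown, has as many matches as Depdc1a and Ndc80, and Ect2 has a second, overlapping window. They run 5′ to 3′ on the gene's strand, with matches on either strand in capitals. They are Ect2 at chr3:27153829-27154128 on the minus strand, Cenpf at chr1:189688037-189688336 on the minus strand, Depdc1a at chr3:159495183-159495482 on the plus strand and Ndc80 at chr17:71526808-71527107 on the minus strand.
Ect2: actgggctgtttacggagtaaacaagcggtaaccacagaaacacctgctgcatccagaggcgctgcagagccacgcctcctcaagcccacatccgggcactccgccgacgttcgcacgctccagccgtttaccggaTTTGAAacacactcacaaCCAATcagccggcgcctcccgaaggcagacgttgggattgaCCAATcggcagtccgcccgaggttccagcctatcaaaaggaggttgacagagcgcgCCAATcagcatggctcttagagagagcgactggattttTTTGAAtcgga
Cenpf: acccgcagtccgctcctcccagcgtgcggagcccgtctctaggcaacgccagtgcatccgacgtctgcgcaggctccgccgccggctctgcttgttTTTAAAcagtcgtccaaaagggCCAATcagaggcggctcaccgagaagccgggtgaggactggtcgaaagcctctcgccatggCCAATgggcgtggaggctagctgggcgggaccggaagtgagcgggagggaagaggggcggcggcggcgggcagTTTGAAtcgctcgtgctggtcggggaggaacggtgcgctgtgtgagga
Depdc1a: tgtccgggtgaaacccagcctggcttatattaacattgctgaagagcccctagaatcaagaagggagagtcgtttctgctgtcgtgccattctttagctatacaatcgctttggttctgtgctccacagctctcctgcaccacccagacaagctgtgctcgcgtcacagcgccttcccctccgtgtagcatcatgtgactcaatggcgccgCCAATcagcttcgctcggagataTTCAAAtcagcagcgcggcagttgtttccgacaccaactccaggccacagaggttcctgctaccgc
Ndc80: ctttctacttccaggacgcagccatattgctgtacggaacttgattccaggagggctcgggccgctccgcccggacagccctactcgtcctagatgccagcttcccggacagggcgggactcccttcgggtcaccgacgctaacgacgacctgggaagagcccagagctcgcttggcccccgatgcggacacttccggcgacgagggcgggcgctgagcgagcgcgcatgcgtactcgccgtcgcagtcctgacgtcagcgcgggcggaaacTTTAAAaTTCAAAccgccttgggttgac

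In Ect2 the first TTTGAA begins 114 bases before the start and a CCAAT follows at 96 bases before it. In Depdc1a the CCAAT lies 39 bases and a reversed hexamer, TTCAAA, 16 bases before the start. Cenpf holds a CCAAT 71 bases before the start and a TTTGAA 2 bases after it, whereas Ndc80 has no CCAAT in its window and its TTTAAA begins 22 bases after the start and a reversed hexamer at 29.

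**Figure D5:**
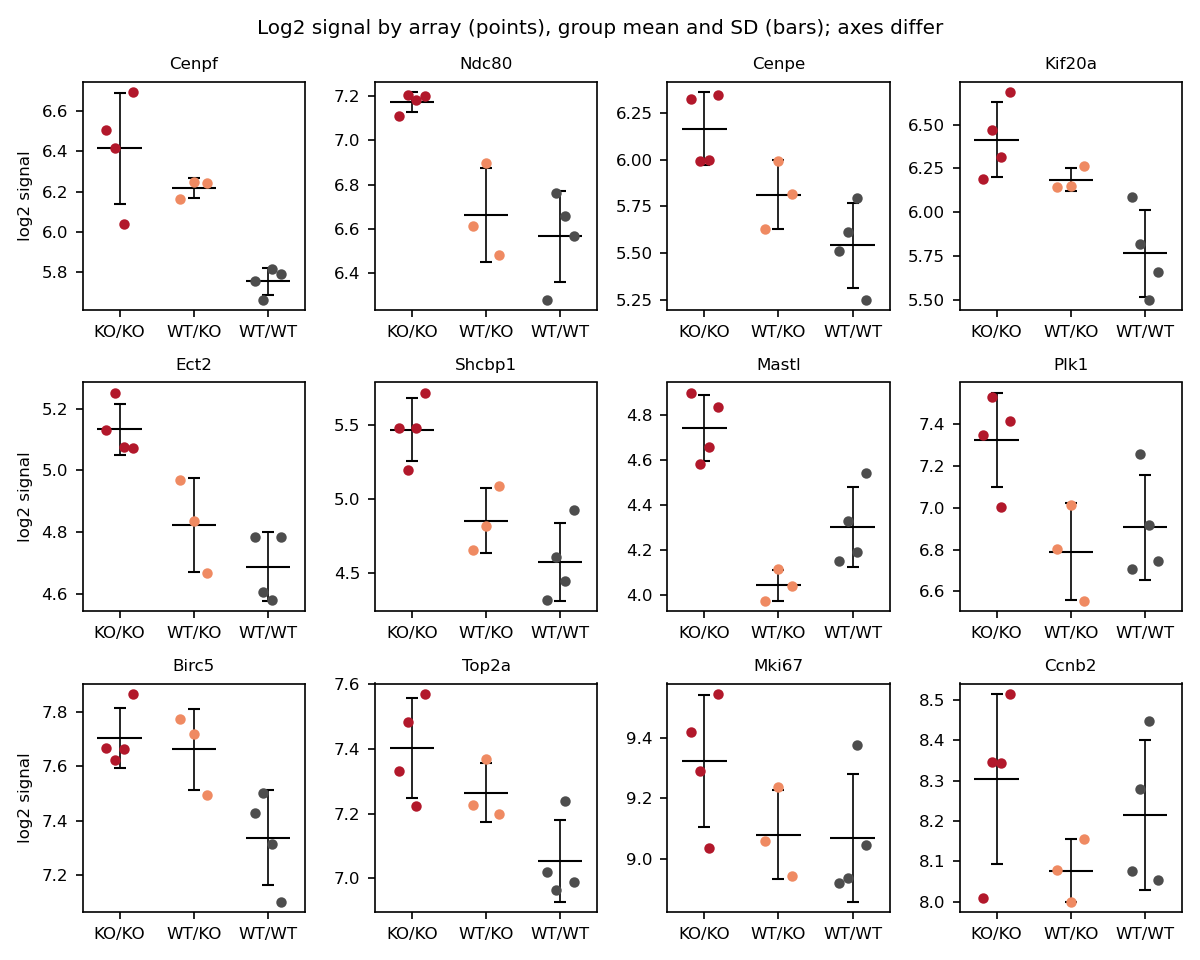
Log2 signal by array (points) with group mean and SD for 12 of the members described below, with KO/KO, WT/KO and WT/WT from left to right in each panel and axes that differ. Ndc80, Ect2, Shcbp1 and Mastl show KO/KO apart from both other groups, Cenpf and Kif20a show both KO-host groups above WT/WT, and Mki67 and Ccnb2 show overlap.

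The kinetochore and spindle checkpoint members had some of the largest separations. Their 8 genes had a median log2 difference of 0.40 for KO/KO against WT/WT, 0.20 for KO/KO against WT/KO and 0.24 for WT/KO against WT/WT. Cenpf, a large protein of the outer kinetochore, had log2 signals of 6.51, 6.42, 6.04 and 6.70 in KO/KO, 6.16, 6.25 and 6.24 in WT/KO, and 5.76, 5.66, 5.81 and 5.79 in WT/WT. All arrays from knockout hosts lay above all WT/WT arrays, and KO/KO and WT/KO overlapped. The difference was 0.66 (SE 0.13, limma adjusted p = 0.263) for KO/KO against WT/WT and 0.46 (SE 0.14, limma adjusted p = 0.629) for WT/KO against WT/WT, the lowest p of any member between hosts.

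Ndc80, a subunit of the complex that binds spindle microtubules at the kinetochore, had 7.11, 7.21, 7.18 and 7.20 in KO/KO, 6.61, 6.90 and 6.48 in WT/KO, and 6.28, 6.76, 6.66 and 6.56 in WT/WT. The KO/KO arrays lay close together and above all others, and WT/KO and WT/WT overlapped. It was higher by 0.61 (SE 0.13, limma adjusted p = 0.317) in KO/KO than in WT/WT and by 0.51 (SE 0.14) in KO/KO than in WT/KO. Its partner in the same complex, Nuf2, differed in pattern on the row used, with 8.37, 9.17, 7.37 and 8.74 in KO/KO, 8.51, 8.26 and 9.74 in WT/KO, and 8.39, 8.41, 7.96 and 9.75 in WT/WT. These groups overlapped widely, and the difference for KO/KO against WT/WT was -0.22 (SE 0.46), the only one below 0 among the members. The second row of Nuf2 had 6.14, 6.39, 5.83 and 6.46 in KO/KO, 5.95, 6.12 and 5.72 in WT/KO, and 5.31, 5.91, 5.99 and 5.56 in WT/WT. There 3 of 4 KO/KO arrays lay above every other group's arrays and KO/KO replicate 3 within the WT/WT range, with a difference of 0.51 (SE 0.18, limma adjusted p = 0.490).

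Cenpe, the kinetochore kinesin that brings chromosomes to the spindle equator, had 6.32, 5.99, 6.00 and 6.35 in KO/KO, 5.63, 5.99 and 5.82 in WT/KO, and 5.51, 5.62, 5.79 and 5.25 in WT/WT. KO/KO and WT/WT did not overlap, WT/KO lay between them in the mean, and KO/KO was higher than WT/WT by 0.62 (SE 0.14, limma adjusted p = 0.386). Bub1, a checkpoint kinase, had 5.46, 5.36, 5.16 and 5.92 in KO/KO, 5.24, 5.29 and 4.95 in WT/KO, and 4.97, 4.84, 5.70 and 5.12 in WT/WT. WT/WT replicate 3 lay above 3 of the 4 KO/KO arrays, and the difference of 0.32 (SE 0.20) was within 2 standard errors of 0. The related Bub1b, a subunit of the mitotic checkpoint complex, was higher by 0.41 (SE 0.13) in KO/KO than in WT/WT. The checkpoint kinase Ttk differed by 0.39 (SE 0.20) and Spc25, another subunit of the Ndc80 complex, by 0.08 (SE 0.20) in the same comparison.

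In the chromosomal passenger complex, which corrects faulty attachments and later directs division, Birc5 (survivin) had 7.67, 7.62, 7.66 and 7.87 in KO/KO, 7.77, 7.72 and 7.49 in WT/KO, and 7.43, 7.50, 7.31 and 7.10 in WT/WT. KO/KO did not overlap with WT/WT, and it shared its range with WT/KO. The difference was 0.37 (SE 0.12, limma adjusted p = 0.468) for KO/KO against WT/WT, 0.04 (SE 0.13) for KO/KO against WT/KO and 0.33 (SE 0.13) for WT/KO against WT/WT. Aurkb, the kinase of the complex, had 6.29, 6.61, 6.55 and 6.71 in KO/KO, 6.14, 6.63 and 6.15 in WT/KO, and 6.34, 6.24, 6.35 and 6.21 in WT/WT. One KO/KO array lay within the WT/WT range, and KO/KO against WT/WT differed by 0.25 (SE 0.13, limma adjusted p = 0.609).

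The kinases and cyclins of mitotic entry gave a median of 0.40 over 7 genes for KO/KO against WT/WT and 0.24 for KO/KO against WT/KO. Between hosts, 2 of the 7 were higher in WT/KO, with a median of -0.12. Cdk1, the kinase that drives entry, had 6.40, 6.39, 6.25 and 6.95 in KO/KO, 6.33, 6.53 and 6.23 in WT/KO, and 5.96, 5.99, 6.24 and 6.20 in WT/WT. KO/KO replicate 4 was the highest array, KO/KO and WT/WT narrowly did not overlap, and the difference was 0.40 (SE 0.15, limma adjusted p = 0.537). Its cyclins differed less. Ccna2, cyclin A2, had 6.90, 7.07, 6.56 and 7.15 in KO/KO, 6.70, 6.69 and 6.66 in WT/KO, and 6.69, 6.42, 6.54 and 7.16 in WT/WT. WT/WT replicate 4 was its highest array, and KO/KO against WT/WT differed by 0.22 (SE 0.17).

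Ccnb2, cyclin B2, had 8.01, 8.35, 8.34 and 8.51 in KO/KO, 8.08, 8.00 and 8.15 in WT/KO, and 8.08, 8.28, 8.45 and 8.05 in WT/WT. The groups overlapped, and KO/KO differed by 0.09 (SE 0.13) from WT/WT and by 0.23 (SE 0.14) from WT/KO. Plk1, the polo-like kinase of spindle assembly and entry, had 7.35, 7.53, 7.004 and 7.41 in KO/KO, 6.80, 7.01 and 6.55 in WT/KO, and 6.71, 7.26, 6.92 and 6.74 in WT/WT. Its KO/KO mean was higher by 0.42 (SE 0.16, limma adjusted p = 0.537) than in WT/WT and by 0.53 (SE 0.17) than in WT/KO, with 1 KO/KO array inside the range of each. A dimmer second row naming Plk1 lies among rows of chromosome 5, away from the gene, and differed by -0.01 between KO/KO and WT/WT.

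Mastl, the Greatwall kinase that restrains the phosphatase opposing Cdk1, had 4.90, 4.58, 4.66 and 4.83 in KO/KO, 3.97, 4.11 and 4.04 in WT/KO, and 4.15, 4.33, 4.19 and 4.54 in WT/WT. The 3 groups did not overlap, with WT/KO lowest. KO/KO was higher than WT/KO by 0.70 (SE 0.13, limma adjusted p = 0.661), the lowest p of a member between T cell genotypes, and higher than WT/WT by 0.44 (SE 0.12, limma adjusted p = 0.405). WT/KO differed from WT/WT by -0.26 (SE 0.13). Its mean over all arrays was 4.39, just above the filter at 4.33, and the means of WT/KO and WT/WT lay below that filter, so it was kept through its KO/KO arrays and counts over the members lean on it to that extent. The next member above the filter was Spc25 at 4.81, and no member lay below it. The entry kinase Aurka differed by 0.02 (SE 0.16) between KO/KO and WT/WT, and Melk, a kinase named for maternal embryonic expression, by 0.57 (SE 0.29).

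The 2 members that work with the anaphase-promoting complex, the ubiquitin ligase that ends mitosis, had the lowest role-group median for KO/KO against WT/WT, 0.09. Ube2c, its ubiquitin-conjugating enzyme, had 7.50, 7.60, 7.27 and 7.69 in KO/KO, 7.46, 7.47 and 7.44 in WT/KO, and 7.37, 7.33, 7.46 and 7.40 in WT/WT. KO/KO replicate 3 was the lowest of all arrays and KO/KO replicate 4 the highest, and KO/KO against WT/WT differed by 0.13 (SE 0.11). Cdc20, its activator and the target of the checkpoint, had 7.64, 7.92, 7.84 and 8.29 in KO/KO, 8.09, 7.66 and 7.67 in WT/KO, and 7.92, 8.03, 7.75 and 7.78 in WT/WT on the row used. The groups overlapped, and KO/KO against WT/WT differed by 0.05 (SE 0.15). The second row of Cdc20 had 6.60, 6.58, 6.41 and 6.73 in KO/KO, 6.10, 6.42 and 6.09 in WT/KO, and 6.53, 6.23, 6.20 and 6.18 in WT/WT. On that row KO/KO was higher than WT/WT by 0.30 (SE 0.12, limma adjusted p = 0.567) and higher than WT/KO by 0.38 (SE 0.13), with overlapping arrays in both.

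The spindle motors, a group of 4 kinesins, had median differences of 0.43 for KO/KO against WT/WT, 0.22 for KO/KO against WT/KO and 0.20 for WT/KO against WT/WT. Kif2c, which depolymerises microtubules at the centromere, had 5.37, 5.99, 5.60 and 5.99 in KO/KO, 5.58, 5.52 and 5.50 in WT/KO, and 5.19, 5.26, 4.94 and 5.38 in WT/WT. The WT/KO arrays lay above all WT/WT arrays, and KO/KO replicate 1 lay within the WT/WT range. KO/KO was higher than WT/WT by 0.54 (SE 0.15, limma adjusted p = 0.409). Kif4, a chromosome-bound kinesin, had 5.55, 6.15, 5.64 and 6.16 in KO/KO, 5.63, 5.83 and 5.56 in WT/KO, and 5.36, 5.44, 5.47 and 5.23 in WT/WT. Every array from a knockout host lay above every WT/WT array, and KO/KO against WT/WT differed by 0.50 (SE 0.15, limma adjusted p = 0.449).

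Kif15, a motor that helps keep spindle poles apart, had 6.09, 6.09, 5.75 and 6.06 in KO/KO, 5.53, 5.56 and 5.42 in WT/KO, and 5.44, 5.43, 5.99 and 5.65 in WT/WT. KO/KO lay wholly above WT/KO, by 0.49 (SE 0.15) in the mean, and 1 WT/WT array lay within the KO/KO range. Kif11, the bipolar motor that separates spindle poles, differed by 0.32 (SE 0.16) between KO/KO and WT/WT.

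Spindle assembly factors had the highest median of the larger role groups, 0.47 for KO/KO against WT/WT over 5 genes, all 5 at an unadjusted p under 0.05, where 4.79% of all genes were higher at that p. Dlgap5, which stabilises microtubules near chromosomes, had 7.84, 6.79, 7.05 and 7.48 in KO/KO, 6.98, 6.74 and 6.66 in WT/KO, and 6.45, 6.55, 6.72 and 6.23 in WT/WT. KO/KO lay wholly above WT/WT and overlapped with WT/KO at its low end. The difference was 0.80 (SE 0.20, limma adjusted p = 0.405) for KO/KO against WT/WT and 0.50 (SE 0.22) for KO/KO against WT/KO. Hmmr, a hyaluronan receptor that also acts at spindle poles, had 5.51, 5.22, 5.02 and 5.47 in KO/KO, 5.35, 5.40 and 5.03 in WT/KO, and 4.72, 4.57, 4.89 and 5.24 in WT/WT. KO/KO and WT/KO overlapped widely, and 3 of 4 WT/WT arrays lay below both, with 0.45 (SE 0.16) for KO/KO against WT/WT and 0.40 (SE 0.18) for WT/KO against WT/WT. Aspm, a spindle pole protein, was higher by 0.70 (SE 0.20, limma adjusted p = 0.420) in KO/KO than in WT/WT, Nusap1, a microtubule bundler, by 0.47 (SE 0.16) and Tpx2, the activator of Aurora A, by 0.42 (SE 0.15).

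The cytokinesis members, 7 in number, had a median of 0.40 for KO/KO against WT/WT, 0.16 for KO/KO against WT/KO and 0.14 for WT/KO against WT/WT. Kif20a, the kinesin that carries the passenger complex to the central spindle, had 6.19, 6.47, 6.32 and 6.69 in KO/KO, 6.15, 6.15 and 6.26 in WT/KO, and 6.09, 5.82, 5.50 and 5.66 in WT/WT. Knockout hosts gave the higher arrays whichever T cells they held, by 0.65 (SE 0.14, limma adjusted p = 0.386) for KO/KO and 0.42 (SE 0.16, limma adjusted p = 0.654) for WT/KO, each against WT/WT. Anln, the actin-binding anillin of the contractile ring, had 5.49, 5.08, 5.16 and 5.17 in KO/KO, 4.96, 5.34 and 5.32 in WT/KO, and 4.77, 4.82, 4.73 and 4.96 in WT/WT. Every array from a knockout host again lay above every WT/WT array, 1 WT/KO array only just, with 0.40 (SE 0.13, limma adjusted p = 0.465) for KO/KO and 0.39 (SE 0.14) for WT/KO against WT/WT, and 0.02 (SE 0.14) between KO/KO and WT/KO.

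Ect2, the exchange factor that activates RhoA at the division plane and the first of the promoters above, had 5.13, 5.25, 5.08 and 5.07 in KO/KO, 4.97, 4.83 and 4.67 in WT/KO, and 4.78, 4.60, 4.58 and 4.78 in WT/WT. KO/KO lay above all other arrays, by 0.45 (SE 0.11, limma adjusted p = 0.386) against WT/WT and 0.31 (SE 0.11) against WT/KO. Prc1, which bundles the central spindle, had 6.25, 5.95, 6.23 and 6.71 in KO/KO, 5.73, 5.99 and 5.81 in WT/KO, and 5.93, 6.00, 5.65 and 5.34 in WT/WT. KO/KO replicate 2 lay within the range of the other groups, and the difference was 0.55 (SE 0.18, limma adjusted p = 0.468) against WT/WT. Racgap1, a GTPase-activating protein of the central spindle, differed by 0.40 (SE 0.20), the abscission protein Cep55 by 0.14 (SE 0.15) and the kinesin Kif23 by 0.07 (SE 0.16) between KO/KO and WT/WT.

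Among chromosome structure genes, Top2a, the topoisomerase that untangles sister chromatids, had 7.33, 7.48, 7.22 and 7.57 in KO/KO, 7.23, 7.37 and 7.20 in WT/KO, and 7.02, 6.96, 7.24 and 6.99 in WT/WT. KO/KO replicate 3 lay below WT/WT replicate 3, and KO/KO against WT/WT differed by 0.35 (SE 0.11, limma adjusted p = 0.468). Mki67, whose protein Ki-67 coats mitotic chromosomes and is the usual stain for cycling cells, had 9.42, 9.29, 9.04 and 9.54 in KO/KO, 9.06, 9.24 and 8.94 in WT/KO, and 8.92, 8.94, 9.37 and 9.05 in WT/WT. Its groups overlapped, with 0.25 (SE 0.14, limma adjusted p = 0.626) for KO/KO against WT/WT, 0.24 (SE 0.15) for KO/KO against WT/KO and 0.01 (SE 0.15) for WT/KO against WT/WT. The condensin subunits Ncapg and Ncapg2 differed by 0.38 (SE 0.22) and 0.39 (SE 0.17) between KO/KO and WT/WT.

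Depdc1a and Shcbp1, which stand outside these role groups, had the lowest p-values of all members for KO/KO against WT/WT. Shcbp1, an adaptor that binds the Shc signalling protein, had 5.48, 5.19, 5.48 and 5.71 in KO/KO, 4.66, 4.82 and 5.08 in WT/KO, and 4.31, 4.60, 4.45 and 4.92 in WT/WT. KO/KO lay above all other arrays, by 0.89 (SE 0.16, limma adjusted p = 0.188) against WT/WT and 0.61 (SE 0.17) against WT/KO. Depdc1a, a protein with a DEP domain, had 5.98, 5.92, 6.37 and 6.22 in KO/KO, 5.47, 5.11 and 5.23 in WT/KO, and 5.19, 4.66, 5.54 and 4.60 in WT/WT on the row used. KO/KO again lay above all other arrays, by 1.12 (SE 0.20, limma adjusted p = 0.188) against WT/WT, a 2.18-fold difference, and by 0.85 (SE 0.22) against WT/KO. Its second row, among rows of its own chromosome, had 5.77, 5.34, 5.30 and 6.12 in KO/KO, 4.33, 5.34 and 5.01 in WT/KO, and 4.57, 4.82, 5.38 and 4.61 in WT/WT. On that row KO/KO overlapped with both groups, with 0.79 (SE 0.25, limma adjusted p = 0.468) against WT/WT and 0.74 (SE 0.28) against WT/KO.

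For a single gene the exact two-sided permutation test over arrays cannot give less than 0.0286, either for 4 arrays against 4 or for 4 against 3. With 4 arrays against 4, any gene whose groups do not overlap must give that smallest exact p. The 13 members that reached it for KO/KO against WT/WT therefore repeat the count of non-overlapping members and add no further test. Of all genes, 2.61% lay wholly above and 2.41% wholly below in that comparison. For KO/KO against WT/KO, Mastl, Depdc1a, Ndc80 and Ect2 reached it. Of all genes, 2.26% lay wholly above and 1.81% wholly below in KO/KO against WT/KO. Depdc1a is counted in both comparisons on the row used, and on its second row KO/KO overlapped with both groups. The other non-overlapping members gave an exact p of 0.0571 for Shcbp1, Kif15 and Nusap1 and of 0.114 for Aspm. Mastl, kept by the filter through its KO/KO arrays, is no support in either comparison.

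Beyond the 41 members, 75 of 78 other mitotic genes were named by a row and 72 passed the filter. None passed the test. Of the 72, 66 were higher in KO/KO than in WT/WT with a median of 0.24, where 46.7% of all genes were higher. In KO/KO against WT/KO, 67 were higher with a median of 0.16, where 53.2% of all genes were higher. In WT/KO against WT/WT, 39 were higher with a median of 0.02, where 45.5% of all genes were higher. The lowest p for KO/KO against WT/WT belonged to Ncaph2, a condensin II subunit, at 0.55 (SE 0.13), Cenpo, a centromere protein, at 0.53 (SE 0.14) and Kif18a, a kinesin that limits chromosome movement, at 0.50 (SE 0.16). For KO/KO against WT/KO they were Cit, the citron kinase of cytokinesis, at 0.73 (SE 0.19), Troap, a spindle-associated protein, at 0.49 (SE 0.14) and Kif18a at 0.57 (SE 0.18). For WT/KO against WT/WT they were Zwilch, of the kinetochore RZZ complex, at 1.49 (SE 0.58) on a row that lies away from the rows of its chromosome, the kinesin Kif20b at 0.46 (SE 0.19) and Troap at -0.32 (SE 0.14). Cyclin B1 had no row naming it alone.

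For the lists that follow, the shares of all genes higher are the same as those just given. Of 21 regulators of these genes, the E2F, B-Myb and MuvB proteins among them, 19 were measured and none passed the test. They had medians of 0.16 for KO/KO against WT/WT with 15 of 19 higher, 0.05 for KO/KO against WT/KO with 12 of 19 higher, and 0.12 for WT/KO against WT/WT with 15 of 19 higher. E2f8, a repressor of the E2F family, was higher by 0.54 (SE 0.14, limma adjusted p = 0.405) in KO/KO and by 0.49 (SE 0.15) in WT/KO than in WT/WT. Mybl2, the B-Myb activator of G2 and M phase genes, differed by 0.12 between KO/KO and WT/WT, and Foxm1, the other activator, had no row of its own. DNA replication genes, 32 measured, had medians of 0.16 for KO/KO against WT/WT with 27 higher, 0.15 for KO/KO against WT/KO with 28 higher and 0.03 for WT/KO against WT/WT with 20 higher. Rrm2 had a WT/KO mean below the filter. Without it, 27 of 31 replication genes were higher in KO/KO than in WT/KO and 20 of 31 in WT/KO than in WT/WT. Their array scores averaged 0.10 ± 0.11 in KO/KO (SD, n = 4), -0.05 ± 0.04 in WT/KO (SD, n = 3) and -0.06 ± 0.06 in WT/WT (SD, n = 4). Rrm1, the large subunit of ribonucleotide reductase, was higher by 0.38 (SE 0.12) in KO/KO than in WT/WT. Pcna, the sliding clamp, differed by 0.14 on a row that lies away from the rows of its chromosome. Some other replication genes, regulators and other mitotic genes were also taken on such rows.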

How the data were processed

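RNA of sorted CD8 T cells was amplified and biotin-labelled for arrays, per the labels' protocols. The deposited values, 115830 rows for 11 arrays, run from 1.27 to 14.4, a range taken here to show the log2 scale. Per the submitters' processing notes, RMA, Partek and the genome build mm9 were used. Their versions are not given in the sources used here. Amplification of little RNA can add spread between arrays, which was not measured.

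Of the rows, 25539 name 1 gene in the platform annotation, 2300 name several and 87991 are unnamed here. Entrez identifiers of 24941 rows matched the RefSeq table, and 0 symbols were updated. Each gene was taken from its row of highest mean, and a gene was tested if that mean reached 4.33, the 25th percentile over named genes. The main test was limma 3.58.1 in R 4.3.3 (lmFit, eBayes) on all 11 arrays without further normalization, with Benjamini-Hochberg adjustment over 15194 genes and a threshold of 0.05. It was tested on simulated data. The number of arrays limits the precision.

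The members, lists and rules were chosen with earlier results of these data known. Members described with each array's value were the 8 of lowest p in each comparison and Mki67, Top2a, Ccna2, Ccnb2, Cdk1, Plk1, Aurkb, Bub1, Birc5, Ube2c and Cdc20. Of the other lists, the 3 of lowest p in a comparison and a few fixed genes could be named, of which not all are printed. S100a8 and the second rows of Nuf2, Cdc20 and Depdc1a were named after their values were seen. Same-numbered arrays of 2 groups deviated from their group means with correlations of -0.11 to 0.12, so replicate numbers were not taken to pair arrays. Promoters came from RefSeq tables on GRCm38.p6, a different build from mm9, and no other coordinates were used. Alternatives covered normalization, filter, rows, variance model, array weights, covariates, samples in the fit and each array left out.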

Additional observations from a re-analysis of the deposited data

Results flagged for a closer look

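In groups of 4 arrays, 3 of 82 tested (41 members in KO/KO and in WT/WT) held 1 array whose gap to its nearest neighbour was a larger part of the group's range than Dixon's 95% critical value allows. Chance gives about 1 in 20 such groups. Bub1b was at 7.15 in KO/KO replicate 1, below the other KO/KO arrays at 7.42 to 7.47. Kif15 was at 5.75 in KO/KO replicate 3, below the other KO/KO arrays at 6.06 to 6.09. Spc25 was at 5.06 in WT/WT replicate 4, above the other WT/WT arrays at 4.54 to 4.62.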

How the results depend on the processing

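No member was called by limma in any of 25 alternatives in any comparison. Of the whole table, 0 genes were called for KO/KO against WT/WT, against 3 with median centring, 2 with the filter at the 50th percentile, 2 with several rows of a gene averaged and 3 with the replicate block, and 0 to 1 with each array left out, 1 of them without KO/KO replicate 4. Same-numbered arrays share only a number (correlations of -0.11 to 0.12), and with the replicate block the members' medians were 0.40 for KO/KO against WT/WT, 0.18 for KO/KO against WT/KO and 0.20 for WT/KO against WT/WT. With the macrophage score as a covariate they were 0.59 and 0.30 for KO/KO and WT/KO against WT/WT, where 0.40 and 0.16 were found without it, and the cause was not tested. The score does not overlap between WT/WT and knockout-host arrays, so it and the host cannot be told apart in that fit. With each array left out, the medians ran from 0.31 to 0.47 for KO/KO against WT/WT, 0.16 to 0.27 for KO/KO against WT/KO and 0.13 to 0.20 for WT/KO against WT/WT. Counts at an unadjusted p under 0.05 ran from 19 to 28, 5 to 14 and 2 to 8 in the same comparisons, lowest without KO/KO replicate 4, WT/KO replicate 3 and WT/KO replicate 2. Without WT/WT replicates 1 and 4 these counts were 15, 10 and 4. The share of all genes at that p is not given for these refits, so changes in the counts may not be particular to the members. Of 1932 recomputed differences of named members, 60 had the other sign.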

Other observations

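Of all genes, 46.7% were higher in KO/KO than in WT/WT, 53.2% in KO/KO than in WT/KO and 45.5% in WT/KO than in WT/WT. A list of G1 phase genes had smaller medians than the members. It pools cyclins and their kinases with inhibitors of those kinases, Cdkn1a to Cdkn1c and Cdkn2a to Cdkn2d. Counts and medians over it therefore mix genes of opposite action and are no measure of passage through G1. Of 15 measured, 12 were higher in KO/KO than in WT/WT with a median log2 difference of 0.09, 9 were higher in KO/KO than in WT/KO with a median of 0.08, and 8 were higher in WT/KO than in WT/WT with a median of 0.05. None passed the test by limma, and 2 had an unadjusted p under 0.05 for KO/KO against WT/WT, both higher in KO/KO, where 4.79% of all genes were higher and 3.67% lower at that p. Cdk2, the kinase of the G1 to S transition, was higher by 0.48 (SE 0.18) in KO/KO than in WT/WT and by 0.65 (SE 0.20) than in WT/KO. Cdkn1a, the inhibitor p21, was higher by 0.43 (SE 0.18) in KO/KO than in WT/WT, while the inhibitor Cdkn1b differed by -0.12. The 15 subunits of the anaphase-promoting complex, which are not restricted to mitosis, had medians of 0.07 for KO/KO against WT/WT with 10 higher, 0.05 for KO/KO against WT/KO with 11 higher and -0.05 for WT/KO against WT/WT with 6 higher.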
